A study of Mus with 4 samples.

Results

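The genes described are 48 regulators and effectors of the cell cycle: cyclins, cyclin-dependent kinases and their inhibitors, the retinoblastoma and E2f proteins, the replication machinery of S phase, and proteins of the mitotic spindle. Their probes were taken as all probes other than controls whose accession maps to 1 of the 48 symbols. A probe was found for 47 of the 48 genes, out of 16358 gene symbols on the array, and these 47 genes have 69 probes. *Mki67*, a widely used marker of proliferating cells, was not matched to a probe. For each gene with several probes, the values are those of its probe with the highest mean signal unless another probe is named.

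RNA came from nephron progenitors of mouse kidneys at embryonic day 15.5, the Six2+ cells of the cap mesenchyme that were sorted by FACS for the green fluorescent protein of a *Six2* Cre transgene. Mutant (*Mut*) embryos were *Six2* CreEGFP+; *PRR* flox/flox, so that the prorenin receptor (PRR, gene *Atp6ap2*) was to be deleted where *Six2* drives Cre, and control (*WT*) embryos were *Six2* CreEGFP+; *PRR* +/+, so both groups carried the Cre transgene. Each of 3 *Mut* and 3 *WT* pools held cells of several kidneys. Dual-colour Agilent arrays 1, 2 and 3 each carried a Cy3-labelled *Mut* pool and the Cy5-labelled *WT* pool of the same number, and array 4, the *WT* vs *WT* array, held *WT* pool 2 in Cy3 and *WT* pool 1 in Cy5. Ratios are log2 Cy3/Cy5, which is log2 *Mut*/*WT* on arrays 1 to 3 by the dye labels of the submitters, and every direction in *Mut* below rests on these labels and would turn if the channels had been exchanged. The dyes were not exchanged, so on arrays 1 to 3 alone genotype and dye cannot be told apart. A dye term can be estimated from array 4, but it rests on that 1 array, where dye coincides with the difference between *WT* pools 2 and 1, and the ratio between the *WT* pools of array 4 is given beside that of each cell cycle gene. The pools are the replicates, and the *WT* embryos were littermates of *Mut* embryos, while the litters behind each pool are not given in the sources used here.

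In G1, cyclin D with Cdk4 or Cdk6 and then cyclin E with Cdk2 phosphorylate the retinoblastoma proteins, which releases E2f transcription factors and the genes of DNA replication. The Mcm complex, loaded at replication origins by Cdc6 and Cdt1, unwinds DNA in S phase, and cyclins A and B with Cdk1 drive the cell through G2 into mitosis. Nephron progenitors both renew themselves and supply cells to new nephrons, and they divide throughout kidney development.

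Of 11 markers of nephron progenitors, 10 were well above background in both channels on arrays 1 to 3, *Six2* and *Cited1* included. The exception was *Pax2*, well above background in *Mut* on 1 array. The same held for 7 of 7 stromal, 6 of 6 differentiating nephron and 5 of 7 ureteric bud markers. It also held for 2 of 6 endothelial, 2 of 6 erythroid and 2 of 4 macrophage markers. Presence alone therefore does not set progenitors apart from the other cell types. *Atp6ap2* has 1 probe, whose normalized log2 signal lay between 7.95 and 8.08 in the *Mut* pools and between 8.07 and 8.27 in the *WT* pools. Its log2 *Mut*/*WT* of -0.17 (SE 0.055, adjusted P = 0.0353) lay beside -0.19 on the *WT* vs *WT* array, so the level of the deleted gene did not tell the genotypes apart, and whether the probe lies in the deleted part was not tested. The array values therefore did not check the dye labels. The study's methods report less *PRR* mRNA in sorted *Mut* cells by qRT-PCR, which was not analysed here. On the 4 arrays 45.1% to 51.1% of probes were well above background in Cy3 and 54.2% to 58.4% in Cy5, and 0 spots were saturated. *WT* pool 1 was hybridized in Cy5 both on array 1 and on array 4 and did not repeat its values at every gene. Haemoglobin *Hba-a1* gave 10.34 on array 1 and 11.78 on the *WT* vs *WT* array, while the *Mut* pools gave 11.54 to 11.63. For 17 of the 47 cell cycle genes, against 39.3% of all probes, the second measurement of *WT* pool 1 was closer to the mean of the *Mut* pools than to that of the *WT* pools of arrays 1 to 3.

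Most cell cycle genes differed by less than 1.5-fold between *Mut* and *WT* nephron progenitors. A probe was called where its adjusted P was below 0.05 and its change larger than 1.5-fold. By this rule *E2f1* was lower in *Mut*, and it was the only 1 of the 47 genes that limma called, against 1.46% of all probes called lower. The call was lost in 6 of the other settings tried, given with *E2f1* below. No cell cycle gene was called higher, a count of 0 by limma, 0 at an unadjusted P under 0.05 and 0 by the methods' *t*-test, where 0.554% of all probes were called higher by limma. The 95% confidence interval of the ratio lay within 1.5-fold in both directions for 45 of the 47 genes, *E2f1* and *Ccna2* being the exceptions, and for 95.5% of all probes. Of the 17919 probes well above background in both channels on arrays 1 to 3, 3.17% were called lower, 1.27% were called higher and 90.4% had such an interval. Without the fold minimum 15 genes were higher, where 13.2% of all probes passed in that direction, and 6 were lower, where 16.4% did. Of the genes that passed, *E2f1* alone exceeded 1.5-fold. Over all 47 genes, passing or not, the median size of log2 *Mut*/*WT* was 0.14.

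By sign, 32 of the 47 genes had a log2 *Mut*/*WT* above 0 and 15 below 0, with a median of 0.08 after loess normalization. When each array was centred on its median instead, the median was -0.44, beside -0.47 on the *WT* vs *WT* array. With loess, the median over the genes was 0.06, 0.07 and 0.10 on arrays 1, 2 and 3 and 0.00 on the *WT* vs *WT* array, where 24 were above and 23 below 0. Over all probes the median log2 *Mut*/*WT* was -0.00. The direction was the same on all 3 arrays for 36 genes. The *WT* vs *WT* ratio had the same sign as the mean *Mut*/*WT* ratio for 35 genes and was the larger of both for 12. The signs were also the same for 67.1% of all probes and for 68.9% of those well above background. RNA of sorted pools does not tell fewer cells in a phase of the cycle from less RNA of a gene per cell.

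**Figure D1:**
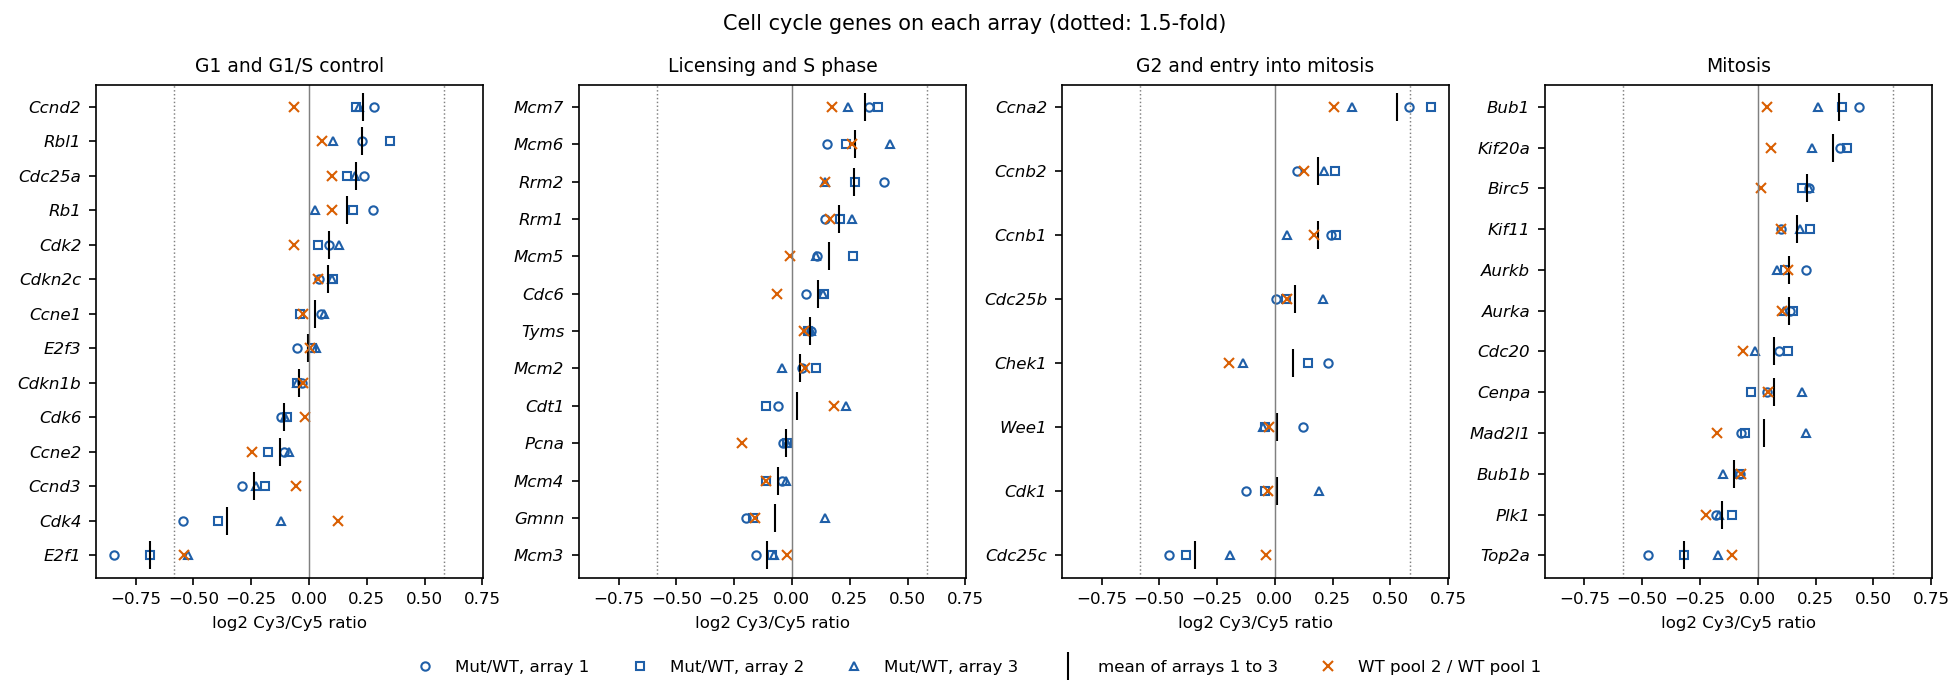
Log2 *Mut*/*WT* of each of the 47 genes by phase of the cell cycle (open symbols, arrays 1 to 3; black bar, their mean) with the log2 Cy3/Cy5 of the *WT* vs *WT* array as crosses and 1.5-fold as dotted lines. *E2f1* has the lowest mean, -0.69, beside -0.54 between the *WT* pools, and *Ccna2* the highest, 0.53, beside 0.25.

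Among the 14 genes of G1, 7 lay above and 7 below 0 with loess (median 0.01), and 13 lay below 0 with median centring (median -0.29). On the *WT* vs *WT* array the medians were -0.02 with loess and -0.30 with median centring. The median *Mut*/*WT* with the deposited log ratios was -0.01. Past the adjusted P, 3 were higher and 3 lower, where 13.2% and 16.4% of all probes were. *E2f1*, a transcription factor that activates genes of S phase, had a normalized log2 signal of 7.93, 7.86 and 8.12 in *Mut* and of 8.78, 8.55 and 8.64 in *WT* on arrays 1, 2 and 3. Every *Mut* pool was below every *WT* pool. The log2 *Mut*/*WT* was -0.85, -0.69 and -0.53, a mean of -0.69 (SE 0.064, 95% confidence interval -0.83 to -0.55, adjusted P = 2.19e-05), or 1.61-fold lower. On the *WT* vs *WT* array *E2f1* was at 8.20 for pool 2 in Cy3 and at 8.74 for pool 1 in Cy5, a log2 ratio of -0.54 between pools of the same genotype. *WT* pool 2 thus gave 8.55 in Cy5 and 8.20 in Cy3, whereas pool 1 in Cy5 gave 8.78 and 8.74. Against the Cy3 signal of *WT* pool 2, the mean of the *Mut* pools was lower by a log2 difference of -0.23. When the *WT* vs *WT* array was fitted as well to give each probe a dye term, the log2 *Mut*/*WT* of *E2f1* was -0.15 (adjusted P = 0.654) and it was not called. The call was also lost with the deposited log ratios (-0.87, adjusted P = 0.0564), with normexp without an offset (-0.81, adjusted P = 0.111) and with median centring (-1.17, adjusted P = 0.0817), where the difference was larger in size but missed the adjusted P. It was lost as well with the methods' *t*-test (adjusted P = 0.160) and with the median over its probes, -0.47, which was short of 1.5-fold.

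*Cdk4*, the kinase partner of D-type cyclins, had signals of 11.35, 11.60 and 11.88 in *Mut* and of 11.90, 12.00 and 12.00 in *WT*. All *Mut* pools were below the *WT* pools, though *Mut* pool 3 lay close to them. The log2 *Mut*/*WT* was -0.54, -0.40 and -0.12, a mean of -0.35 (SE 0.072, adjusted P = 0.00338), short of 1.5-fold. The *WT* vs *WT* array gave the opposite sign, 0.12, so the dye term moved *Cdk4* farther from 0, to -0.48 (adjusted P = 0.154). *Ccnd3* (cyclin D3) was at -0.29, -0.19 and -0.23, a mean of -0.24 (adjusted P = 0.00521), beside -0.06 between the *WT* pools. *Ccnd2* (cyclin D2) went the other way, at 0.28, 0.20 and 0.21, a mean of 0.23 (adjusted P = 0.00549), beside -0.07 between the *WT* pools, but its other probes were below 0.

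Of the other G1 genes, *Rbl1* (p107, a relative of the retinoblastoma protein) was at 0.23 (adjusted P = 0.0124) and *Cdc25a*, the phosphatase that activates Cdk2, at 0.20 (adjusted P = 0.0116). On the *WT* vs *WT* array they were at 0.06 and 0.10. The retinoblastoma gene *Rb1* was at 0.16 (adjusted P = 0.0555), beside 0.10 between the *WT* pools. Cyclin E2 (*Ccne2*) was at -0.12 in *Mut*/*WT* and at -0.25 between the *WT* pools. *E2f3* was at -0.00, *Ccne1* (cyclin E1) at 0.03, *Cdk2* at 0.09, and the inhibitors *Cdkn1b* (p27) and *Cdkn2c* (p18) at -0.05 and 0.08, with adjusted P from 0.241 to 0.968. Between the *WT* pools these genes were at 0.00, -0.03, -0.06, -0.02 and 0.04. *Cdk2* was well above background on 1 array in each channel. *Cdk6* was not well above background in *Mut* (Cy3) on any array but was in *WT* (Cy5) on all 3. Fewer probes were well above background in Cy3 than in Cy5 on every array, the *WT* vs *WT* array included. The measured means of *Cdk6* were 6.48 in *WT* and 6.37 in *Mut*. Its log2 *Mut*/*WT* of -0.11 did not pass the adjusted P (0.139), beside -0.02 between the *WT* pools.

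**Figure D2:**
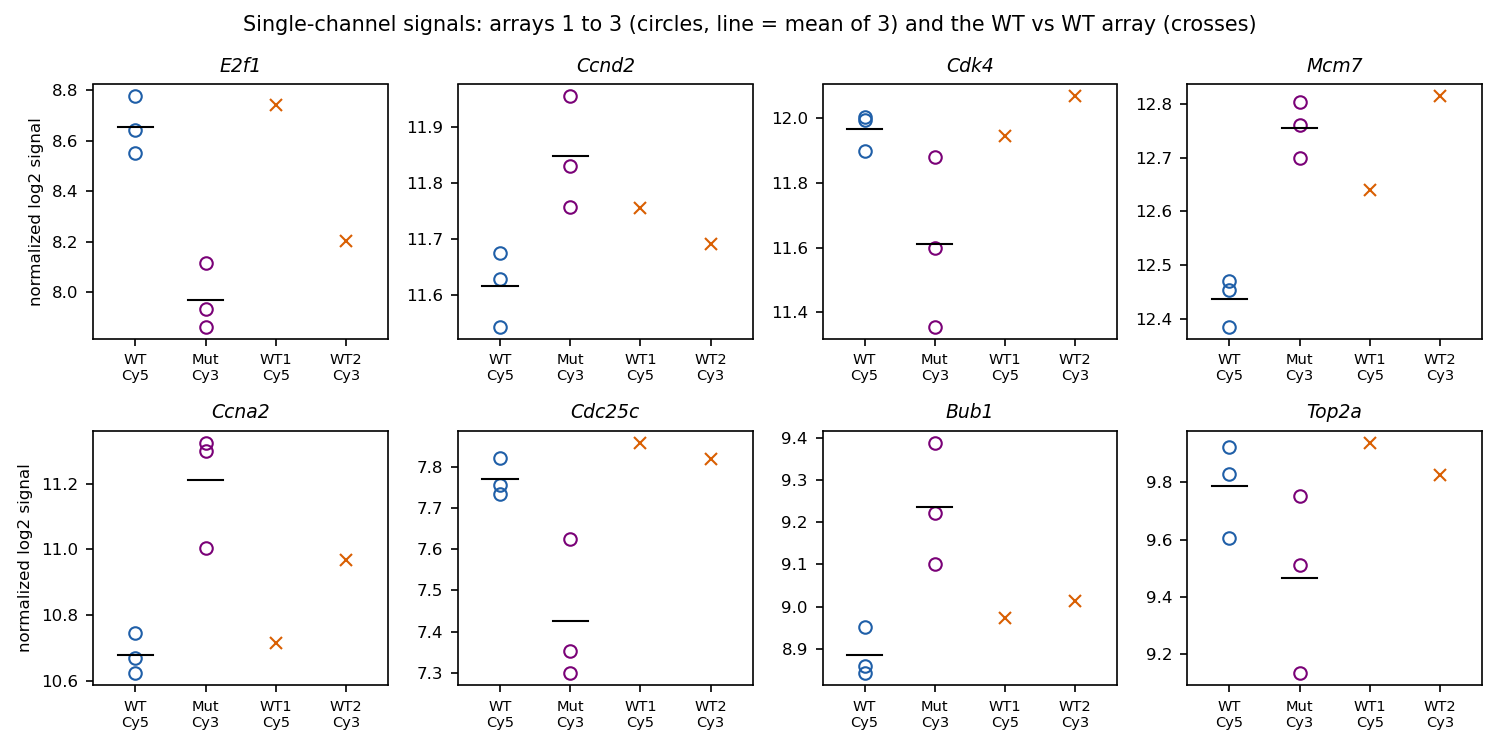
Normalized log2 signal of single pools for 8 genes, with the *WT* and *Mut* pools of arrays 1 to 3 as circles (line, mean of 3) and both *WT* pools of the *WT* vs *WT* array as crosses, each panel on its own axis, which does not start at 0. For *E2f1* the Cy3 signal of *WT* pool 2 (8.20) lies nearer to the *Mut* pools (7.86 to 8.12) than the Cy5 signal of *WT* pool 1 (8.74) does.

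Of the 13 genes of S phase, 5 passed the adjusted P as higher at their brightest probe, where 13.2% of all probes did, and none as lower, where 16.4% did, although the second probe of *Mcm3* was past it at -0.53. Their median was 0.08 with loess, beside 0.05 on the *WT* vs *WT* array. Median centring put all 13 below 0 with a median of -0.56, and on the *WT* vs *WT* array also all 13, with a median of -0.48. *Mcm7*, a subunit of the replicative helicase, had signals of 12.80, 12.76 and 12.70 in *Mut* and of 12.47, 12.39 and 12.46 in *WT*. The groups did not overlap, and the log2 *Mut*/*WT* was 0.33, 0.37 and 0.24, a mean of 0.32 (SE 0.053, adjusted P = 0.000959). *WT* pool 2 was at 12.81 in Cy3 on the *WT* vs *WT* array, as high as the highest *Mut* pool, and the ratio there was 0.17.

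*Mcm6*, another subunit, was at 0.15, 0.23 and 0.43, a mean of 0.27 (adjusted P = 0.00582), and at 0.26 between the *WT* pools, so that the dye term left 0.01. *Rrm2* and *Rrm1*, both subunits of ribonucleotide reductase, which makes the building blocks of DNA, were at 0.27 (0.40, 0.27 and 0.14; adjusted P = 0.00513) and at 0.20 (0.14, 0.21 and 0.26; adjusted P = 0.0126). Their *WT* vs *WT* ratios were 0.14 and 0.16. *Mcm5* was at 0.16 (adjusted P = 0.0479), beside -0.01 between the *WT* pools. The other members of the complex did not share that sign throughout, since *Mcm2* was at 0.04, *Mcm4* at -0.06 and *Mcm3* at -0.11, none past the adjusted P, beside 0.06, -0.11 and -0.02 between the *WT* pools.

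The loading factors *Cdc6* and *Cdt1* were at 0.11 and 0.02, the licensing inhibitor *Gmnn* (geminin) at -0.07 and thymidylate synthase *Tyms* at 0.08, none past the adjusted P at the brightest probe, while the second probe of *Tyms* was past it at 0.16 (adjusted P = 0.0317). The *WT* pools of array 4 gave -0.06, 0.18, -0.16 and 0.05 for these genes, so *Cdt1* and *Gmnn* differed more between them than between *Mut* and *WT*. *Cdt1* was at -0.06, -0.11 and 0.23 and *Gmnn* at -0.20, -0.17 and 0.14 on arrays 1, 2 and 3, so array 3 had the opposite sign for both. *Pcna*, the sliding clamp of the replicative polymerases and a common marker of proliferation, was at 12.67, 12.65 and 12.68 in *Mut* and at 12.71, 12.68 and 12.70 in *WT*. Its log2 *Mut*/*WT* was -0.03 (95% confidence interval -0.14 to 0.08, adjusted P = 0.720), and both *WT* pools of array 4 differed by more, -0.21.

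Among the 8 genes of G2, cyclin A2 (*Ccna2*), which partners Cdk2 and Cdk1, came closest to being called higher. Its signals were 11.33, 11.30 and 11.00 in *Mut* and 10.75, 10.62 and 10.67 in *WT*, with no overlap. The log2 *Mut*/*WT* was 0.58, 0.68 and 0.33, a mean of 0.53 (SE 0.066, adjusted P = 0.000145), or 1.44-fold. Without array 3 it was 0.63 and *Ccna2* was called. The *WT* pools of the *WT* vs *WT* array were at 10.97 in Cy3 and 10.71 in Cy5, a ratio of 0.25, and with the dye term 0.28 remained (adjusted P = 0.366).

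The phosphatase gene *Cdc25c*, whose product activates Cdk1 at entry into mitosis, was at 7.30, 7.35 and 7.63 in *Mut* and at 7.76, 7.73 and 7.82 in *WT*. Each *Mut* pool was below all *WT* pools. Its log2 *Mut*/*WT* was -0.46, -0.38 and -0.20, a mean of -0.35 (SE 0.060, adjusted P = 0.00124), beside -0.04 between the *WT* pools and -0.31 with the dye term. Cyclins B2 (*Ccnb2*) and B1 (*Ccnb1*) were both at 0.19 (adjusted P = 0.0226 and 0.0314), beside 0.12 and 0.17 between the *WT* pools. *Cdk1* itself was at -0.13, -0.04 and 0.19, a mean of 0.01 (adjusted P = 0.945), beside -0.03 between the *WT* pools. *WT* pool 1 gave 9.20 for *Cdk1* on array 1 and 9.79 on the *WT* vs *WT* array, the largest difference of any of the 47 genes between repeats of this pool. The phosphatase *Cdc25b* was at 0.09 and the checkpoint kinase *Chek1* at 0.08, with adjusted P of 0.281 and 0.418, beside 0.05 and -0.20 between the *WT* pools. *Wee1*, the kinase that restrains Cdk1, was at 0.01 (adjusted P = 0.921), beside -0.03, and was not well above background in *Mut* on any array. Over the 8 genes the median was 0.08 with loess, beside 0.01 between the *WT* pools, and -0.40 with median centring, beside -0.42 between the *WT* pools.

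Genes of mitosis were measured for 12 of 13, and 4 passed the adjusted P as higher and 2 as lower, all short of 1.5-fold, where 13.2% and 16.4% of all probes passed. *Bub1*, a kinase of the spindle checkpoint, was at 9.39, 9.22 and 9.10 in *Mut* and at 8.95, 8.86 and 8.84 in *WT*. Its log2 *Mut*/*WT* was 0.44, 0.36 and 0.26, a mean of 0.35 (SE 0.055, adjusted P = 0.000598), against 0.04 between the *WT* pools. The groups did not overlap, and both *WT* pools of the *WT* vs *WT* array, at 8.97 and 9.01, lay below the *Mut* pools. *Kif20a*, a kinesin of cytokinesis, was at 10.82, 10.93 and 10.78 in *Mut* and at 10.46, 10.55 and 10.54 in *WT*. Its ratio was 0.35, 0.39 and 0.24, a mean of 0.33 (SE 0.054, adjusted P = 0.000907), with 0.06 between the *WT* pools. Both *WT* pools of the *WT* vs *WT* array were at the level of the *Mut* pools, however, at 10.82 in Cy3 and 10.76 in Cy5.

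*Birc5* (survivin), of the chromosomal passenger complex, was at 0.22, 0.19 and 0.22, a mean of 0.21 (adjusted P = 0.00859), and the spindle kinesin *Kif11* at 0.17 (adjusted P = 0.0320). *Birc5* was at 0.01 and *Kif11* at 0.10 on the *WT* vs *WT* array. For *Birc5* both *WT* pools were there at 12.92 and 12.93, within the range of the *Mut* pools (12.83 to 12.98) and above the *WT* pools of arrays 1 to 3 (12.63 to 12.76). *Top2a*, the topoisomerase that untangles sister chromatids, was the lowest, with 9.13, 9.51 and 9.75 in *Mut* and 9.61, 9.83 and 9.92 in *WT*. The groups overlapped, while within each array *Mut* was below *WT*, by -0.47, -0.32 and -0.17, a mean of -0.32 (SE 0.062, adjusted P = 0.00245), beside -0.11 between the *WT* pools. *Plk1*, a kinase of mitotic entry, was at -0.15 (adjusted P = 0.0425), smaller in size than its -0.22 between the *WT* pools, and at 0.07 with the dye term. The aurora kinases *Aurka* and *Aurkb* were both at 0.14, with adjusted P of 0.0650 and 0.0731, and at 0.11 and 0.13 between the *WT* pools, nearly the same values. *Cdc20*, *Cenpa* and *Mad2l1* were at 0.07, 0.07 and 0.03 and *Bub1b* at -0.10, none past the adjusted P. Between the *WT* pools they were at -0.07, 0.05, -0.18 and -0.07. The median of the 12 genes was 0.10 with loess, beside 0.03 between the *WT* pools, and -0.47 with median centring, beside -0.53 between the *WT* pools.

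Where a gene had several probes, they did not always give 1 direction. Of the 47 genes, 28 had 1 probe, 16 had 2 and 3 had 3, and for 7 of these 19 the probes differed in sign. For *Ccnd2* and *Ccnb1* probes of both signs passed the adjusted P. The 3 probes of *Ccnd2*, from brightest to dimmest, were at 0.23, -0.36 and -0.58 (adjusted P = 0.00549, 0.000886 and 0.000231), and on the *WT* vs *WT* array at -0.07, -0.26 and -0.24. The third probe was at -0.77, -0.66 and -0.30 on arrays 1, 2 and 3, with a mean short of 1.5-fold. The second was at -0.46, -0.40 and -0.22. Those of *Ccnb1* were at 0.19, -0.06 and -0.24. On arrays 1, 2 and 3 the brightest was at 0.24, 0.26 and 0.05, the second at -0.02, -0.05 and -0.11 and the dimmest at -0.23, -0.23 and -0.25. The other probe of *Cdc25c* was at 0.06, -0.05 and 0.06, a mean of 0.02 (adjusted P = 0.804), so the lower value of that gene rested on 1 of 2 probes. Other probes of *Cdc25b*, at -0.16 and -0.34, were past the adjusted P where the brightest was at 0.09. On arrays 1, 2 and 3 the brightest was at 0.00, 0.05 and 0.21, the second at -0.21, -0.16 and -0.11 and the third at -0.50, -0.27 and -0.26, the last beside -0.39 between the *WT* pools and with a *Mut* signal that on no array was well above background. The probes of *Ccne1*, *Cdk2* and *E2f3* differed in sign as well, with no probe past the adjusted P. For *Ccne1* they were at 0.05, -0.04 and 0.07 and at -0.14, -0.02 and 0.00, for *Cdk2* at 0.09, 0.04 and 0.13 and at -0.33, 0.01 and -0.05, and for *E2f3* at -0.05, 0.01 and 0.03 and at 0.22, 0.08 and 0.03. The second probe of *Mcm3* was at -0.83, -0.56 and -0.18, a mean of -0.53 (adjusted P = 0.00145), where the brighter gave -0.11. *E2f1* and *Top2a* kept their sign on their second probes, at -0.25 (adjusted P = 0.00599) and -0.24 (adjusted P = 0.00680). For *E2f1* the second probe was short of 1.5-fold, so that 1 of the 69 probes was called.

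**Figure D3:**
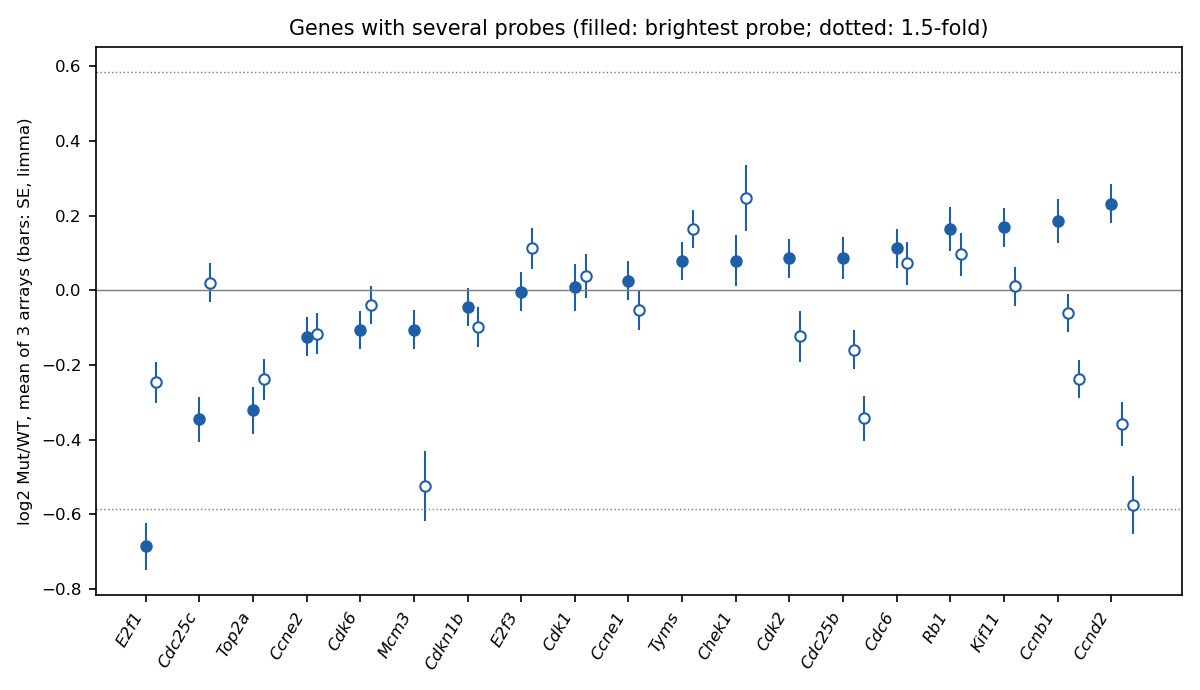
Log2 *Mut*/*WT* of every probe of the 19 genes with several probes (mean of arrays 1 to 3, bars SE by limma), the brightest probe of each gene filled and 1.5-fold dotted. The 3 probes of *Ccnd2* run from 0.23 to -0.58, while both probes of *E2f1* and of *Top2a* lie below 0.

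The levels of single pools were compared as well. All 3 *Mut* pools were above all 3 *WT* pools for 11 of the 47 genes, where 17.4% of all probes had that order, and below them for 7, where 20.6% did. Among the probes well above background in both channels, as 44 of the 47 genes were, these shares were 24.4% and 28.4%. The *Mut* and *WT* pools overlapped for 29 genes. The spread over the *WT* pools had a median of 0.12 over the genes, and that over the *Mut* pools of 0.22. Between both measurements of *WT* pool 1 in Cy5 the median difference was 0.12 in size, and for 23 genes it exceeded the size of the log2 *Mut*/*WT*. Against the Cy3 signal of *WT* pool 2, the mean of the *Mut* pools lay between -0.46 (*Cdk4*) and 0.31 (*Rrm2*), and no cell cycle gene differed by over 1.5-fold. With the dye term, limma left 0 of the 47 genes past the adjusted P, the lowest being 0.154 for *Cdk4*, and 5 at an unadjusted P under 0.05. The shares of all probes with the dye term are not given here, so these counts have no background beside them. Of the 21 genes past the adjusted P without that term, 20 kept their sign and 18 became smaller.

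The sign of the set as a whole depended on how each array was scaled. Loess fits the ratio along the signal, and with it the 17919 probes well above background had a median log2 *Mut*/*WT* of -0.00. With each array centred on its median, those probes had a median of -0.44 and the cell cycle genes the same, -0.44, with 45 of 47 below 0. On the *WT* vs *WT* array the cell cycle genes then had a median of -0.47, with no difference of genotype. With the log ratios deposited by the authors the median of the cell cycle genes was 0.13, with 31 above and 16 below 0, beside 0.03 for the probes above background. Measured from the median of the probes above background, the median of the cell cycle genes was 0.08 with loess, 0.00 with median centring and 0.10 with the deposited log ratios.

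**Figure D4:**
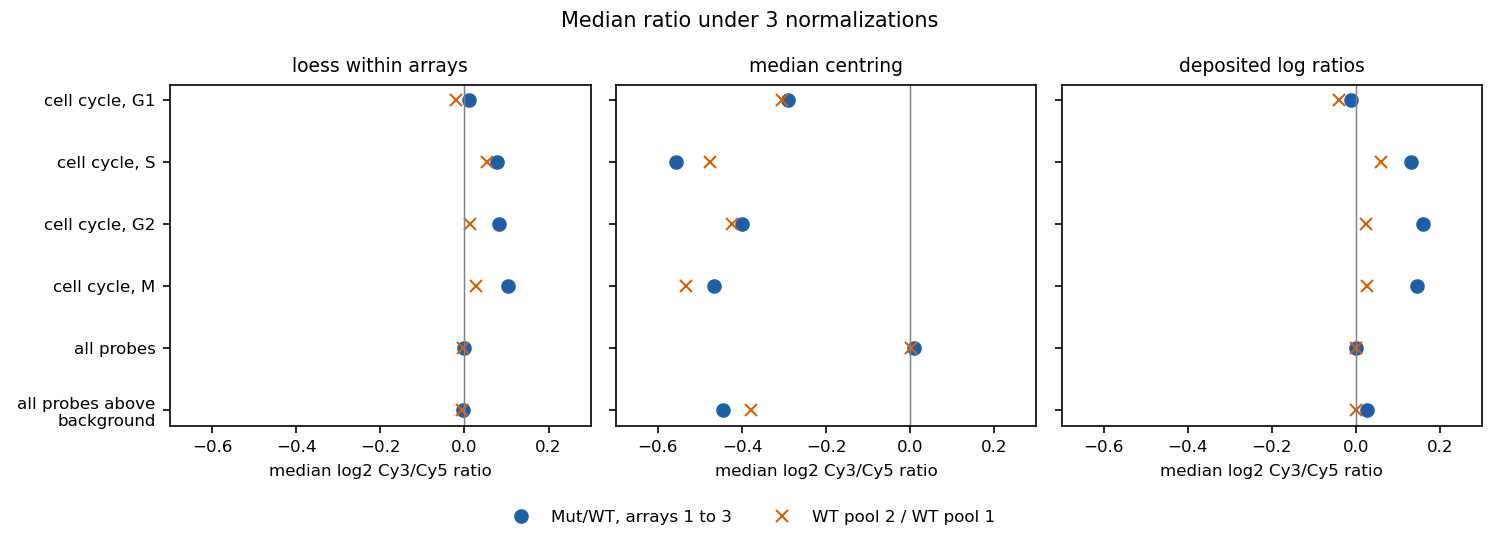
Median log2 *Mut*/*WT* (points) and median log2 Cy3/Cy5 of the *WT* vs *WT* array (crosses) of the cell cycle genes of each phase, of all probes and of the probes above background, under loess, median centring and the deposited log ratios. Median centring moves S phase to -0.56 and the probes above background to -0.44, and *WT* vs *WT* moves with them.

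A wider list of 103 cell cycle genes that are not among the 48 was measured for 94. Of these, 34 passed the adjusted P as higher, where 13.2% of all probes did, and 12 as lower, where 16.4% did, 48 did not pass, and the median was 0.07 with loess, beside -0.01 between the *WT* pools. Past both thresholds were 1 higher gene, *Ccnd1*, and 2 lower genes, *Hmmr* and *Cdkn1c*, where 0.554% of all probes were called higher and 1.46% lower. Among the probes well above background these shares were 1.27% and 3.17%. None of these 3 genes was called without an offset or with median centring, and *Ccnd1* alone was called with the dye term. *Ccni* (cyclin I) has 4 probes, of which a dimmer one was called lower at -0.78 (-0.92, -0.79 and -0.63), and also with the dye term (-0.66). The brightest probe of that gene was at 0.39, and its remaining probes are not given here. *Ccnd1* (cyclin D1) was at 10.28, 10.27 and 10.31 in *Mut* and at 9.61, 9.62 and 9.58 in *WT*, a log2 ratio of 0.68 (SE 0.052, adjusted P = 5.73e-06). With the dye term it was 0.65 (adjusted P = 0.0124). The study lists *CCND1* among the genes downregulated in *Mut*, the opposite direction. On the *WT* vs *WT* array, however, both *WT* pools were at the level of the *Mut* pools, 10.28 in Cy3 and 10.26 in Cy5, although *WT* pools 1 and 2 had been at 9.61 and 9.62 on arrays 1 and 2.

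*Cdkn1c* (p57), an inhibitor of cyclin-dependent kinases, was at 12.59, 12.78 and 12.84 in *Mut* and at 13.34, 13.34 and 13.35 in *WT*, a log2 ratio of -0.60 (SE 0.059, adjusted P = 3.20e-05), beside -0.02 between the *WT* pools of array 4. With the dye term it was -0.58 (adjusted P = 0.0429), short of 1.5-fold. There the *WT* pools were at 12.87 and 12.89, closer to the *Mut* pools than to the *WT* pools of arrays 1 to 3. *Hmmr*, a protein of the mitotic spindle, was at 7.31, 7.36 and 7.70 in *Mut* and at 8.10, 8.11 and 8.21 in *WT*, a log2 ratio of -0.68 (SE 0.062, adjusted P = 1.92e-05). Between the *WT* pools of array 4 it was at -0.18, and with the dye term *Mut*/*WT* was -0.51 (adjusted P = 0.0850). Without array 3, 7 genes of the wider list were called, and the share of all probes called in that setting is not given here. At their brightest probes, *Cdk4* and *Cdk6*, the partners of cyclin D1, and its relatives *Ccnd2* and *Ccnd3* differed by less than 1.5-fold.

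Markers of other cell types differed between the channels as well, and their part in the values of the cell cycle genes was not tested. Over all probes, 13.2% passed the adjusted P as higher and 16.4% as lower, the shares to hold beside the marker counts that follow. Of 6 erythroid genes 4 passed the adjusted P as higher in *Mut*. The linear normalized signals of the 6 genes summed to 3460 to 3625 in *Mut* and to 1675 to 1840 in *WT*. On the *WT* vs *WT* array the sum was 3499 in Cy3 and 3985 in Cy5. Most of this sum was *Hba-a1*, and the other 5 erythroid genes summed to 454 to 496 in *Mut*, 377 to 437 in *WT* and 485 and 471 on the *WT* vs *WT* array. The erythroid genes *Epb42* and *Hbb-bh1* did not rise well above background on any of arrays 1 to 3, in *Mut* or *WT*. *Hbb-y*, which the study lists as upregulated in *Mut*, had the same direction here, at 0.49 (adjusted P = 0.000434), short of 1.5-fold. It was well above background in *WT* on 1 array. Its *WT* pools on the *WT* vs *WT* array, at 6.83 and 6.82, lay above the *Mut* pools (6.67 to 6.74). Of 7 stromal genes 6 passed as higher and 1, *Foxd1*, as lower, with sums of 7036 to 8464 in *Mut*, 5749 to 6033 in *WT* and 7074 and 6164 on the *WT* vs *WT* array. Of 6 genes of differentiating nephrons 5 passed as higher, among them *Lhx1* at 0.69, *Jag1* at 0.44 and *Fgf8* at 0.40, with summed signals of 1637 to 1775 in *Mut*, 1272 to 1364 in *WT* and 1826 and 1842 on the *WT* vs *WT* array. The study lists *Lhx1*, *Jag1* and *Fgf8* as downregulated in *Mut*, the opposite direction, and also reports their fall by real-time RT-PCR of sorted cells. That RT-PCR was not analysed here. *Jag1* and *Fgf8* were short of 1.5-fold here, whereas the study's list used a 1.5-fold minimum. Nephron progenitor genes summed to 27102 to 28530 in *Mut* and to 30082 to 31319 in *WT*, with 2 of 11 past the adjusted P as higher and 5 as lower, and to 27277 and 29439 on the *WT* vs *WT* array. *Crym* carried that difference, with 12768 to 13840 in *Mut* and 15710 to 16757 in *WT*, and the other 10 genes summed to 14237 to 14690 and to 14231 to 14562. Ureteric bud genes summed to 2420 to 2518 in *Mut* and to 2564 to 2614 in *WT*, and endothelial genes to 728 to 737 and to 721 to 740. In Cy3 and Cy5 of the *WT* vs *WT* array these sums were 2408 and 2253, and 711 and 647, all below the *WT* pools of arrays 1 to 3. *Hoxb7* carried the gap of the ureteric bud genes, since the other 6 summed to 995 to 1019 in *Mut* and to 1006 to 1016 in *WT*. For macrophages, 4 of 6 genes were measured and summed to 451 to 478 in *Mut*, to 502 to 530 in *WT* and to 438 and 469 on the *WT* vs *WT* array, with *Lyz2* at 163 to 186 in *Mut* and 209 to 216 in *WT*.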

How the data were processed

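The authors deposited the Agilent Feature Extraction 10.7.3.1 output of 4 arrays on 1 slide, with unnormalized spot and local background intensity in both channels and the log10 ratio of red over green with background subtracted and dyes normalized. The log10 ratios of a deposited series table equalled these in 180072 of 180072 cases (tolerance 1e-06). The GeneSpring values of the study were not analysed here. Median signals were corrected by normexp (offset 50) and loess, control and outlier spots (122 to 162 an array) were left out, and spots of a probe were averaged. Levels are log2 signals after Aquantile. Median signals were 65.5 to 82 in Cy3 and 84 to 92 in Cy5, over backgrounds of 16 to 17 and 50. The small number of arrays limits precision.

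Log2 *Mut*/*WT* on arrays 1 to 3 was tested against 0 with limma 3.58.1 (R 4.3.3), P adjusted by Benjamini-Hochberg over 41166 probes. "Well above background" is the flag of the deposited files. The pools of an array deviated together from their group means (r = 0.387, 0.428 and 0.318 over probes). Both channels come from the same spots, so this does not show a pairing of the pools beyond the shared array. Symbols came from a GRCm38.p6 table, which named 22951 of 41174 probes and was used for names alone. The script was tested on simulated data. The result of 1 marker gene is not reported here. The genes, lists and tests were chosen with earlier results of these data known. All 48 genes are named; values on every array are given for the genes called, for the largest differences in each phase and for genes whose probes disagree, and of the wider list for each gene called. Alternatives covered median centring, the deposited log ratios, the normexp offset, a dye term, outlier spots, dim probes, unpaired channels, left-out replicates, the methods' *t*-test, the fold minimum and the median over probes.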

Additional observations from a re-analysis of the deposited data

How the results depend on the processing

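The number of cell cycle genes called lower in *Mut* was 1 (*E2f1*) in the reported setting and without any 1 array (1 to 1), and was 0 with the deposited log ratios, with normexp without an offset, with median centring, with the dye term, with the methods' *t*-test and with the median over probes. Without the fold minimum it was 6. *E2f1* was at -0.87 (adjusted P = 0.0564) with the deposited log ratios, at -0.81 (adjusted P = 0.111) without an offset and at -1.17 (adjusted P = 0.0817) with median centring. The median over its probes was -0.47. The number called higher was 0, but 0 to 1 when 1 array was left out, the 1 being *Ccna2* without array 3, and 15 without the fold minimum. The median log2 *Mut*/*WT* of 0.08 was 0.13 with the deposited log ratios, 0.12 without an offset, -0.44 with median centring, 0.051 with the dye term and 0.035 with the median over probes. Of the wider list 3 genes were called in the reported setting, 0 without an offset, 0 with median centring, 1 with the dye term and 2 to 7 without 1 array. With the channels unpaired, that is without the replicate block, 1 gene was called lower and 0 higher, *E2f1* was at -0.69 and the median was 0.08, and no call changed. The cause of these differences was not tested.

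With median centring 30 of the 47 genes turned negative: *Ccne1* -0.60, *Cdt1* -0.62, *Cdc20* -0.59, *Tyms* -0.56, *Mcm2* -0.56, *Cdk1* -0.55, *Cdc25b* -0.49, *Mcm5* -0.48, *Aurka* -0.48, *Ccnb2* -0.47, *Birc5* -0.47, *Cenpa* -0.46, *Mcm6* -0.44, *Mad2l1* -0.44, *Rrm1* -0.42, *Ccnd2* -0.41, *Mcm7* -0.36, *Cdc6* -0.34, *Ccnb1* -0.33, *Kif11* -0.32, *Kif20a* -0.29, *Chek1* -0.29, *Aurkb* -0.29, *Rrm2* -0.28, *Rbl1* -0.27, *Rb1* -0.21, *Bub1* -0.19, *Cdkn2c* -0.12, *Cdc25a* -0.086 and *Ccna2* -0.090. Median centring also moved the probes well above background to a median of -0.44, and the *WT* vs *WT* median of the 47 genes to -0.47. These changes of sign are therefore not particular to the cell cycle genes. With the dye term *Mcm2* was at -0.022, *Cdt1* at -0.16, *Gmnn* at 0.085, *Ccne2* at 0.12, *Mcm4* at 0.053, *Pcna* at 0.19 and *Plk1* at 0.071. With the median over probes *E2f3* was at 0.054, *Ccne1* at -0.013, *Ccnd2* at -0.36, *Cdk2* at -0.019, *Ccnb1* at -0.060 and *Cdc25b* at -0.16. *Ccne1* was at -0.0017 with the deposited log ratios and *E2f3* at 0.016 without an offset. Without 1 array *Wee1* ran from -0.047 to 0.040, *E2f3* from -0.020 to 0.020, *Mad2l1* from -0.063 to 0.077, *Cdk1* from -0.084 to 0.075 and *Cdt1* from -0.085 to 0.086. *Ccna2* ran from 0.46 to 0.63. With outlier spots kept no gene changed direction or call, nor with dim probes left out among the 44 genes that remained.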
